A study of Mus musculus with 6 samples.

Results

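Interferon-stimulated genes were followed in articular cartilage of wild-type mice aged 2 months and 18 months, with 3 RNA sequencing libraries at each age. The 9 genes were Isg15, Usp18, Irf7, Ifit1, Ifit3, Oasl2, Mx1, Rsad2 and Ifi44, found by their symbols among the 33971 genes of the expression table. The labels give no treatment at either age and no strain. They do not say whether a library came from 1 animal or from several, so that the p-values measure only the spread between these libraries. The libraries held 48171507 to 51683577 counts at 2 months and 55201357 to 59085179 counts at 18 months. All 9 genes passed edgeR's filter on low counts, which left 20397 genes to be tested. Levels are given as FPKM, fragments scaled for the length of the transcript and the size of the library, and fold changes compare 18-month with 2-month cartilage.

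Type I interferons are secreted proteins that bind the receptor pair IFNAR1 and IFNAR2. The kinases JAK1 and TYK2 then activate transcription factors that join IRF9 and switch on genes that carry an interferon-stimulated response element (ISRE) near their start. The products of these genes restrict viral replication, and some of them strengthen or end the interferon signal itself. Most cell types, chondrocytes and leukocytes included, can respond in this way.

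The labelled tissue was checked against marker genes, and the libraries were not alike. The 16 chondrocyte markers took 7.54% to 8.87% of all counts at 2 months. At 18 months they took 0.846% in replicate 1 and 0.196% and 0.195% in replicates 2 and 3. All 16 were called lower by the edgeR test described below, beside 4354 of all 20397 genes tested. Col2a1, the main collagen of cartilage, was at 1411 to 3359 FPKM at 2 months and at 12.8 to 21.2 FPKM at 18 months. Among the 2-month libraries, replicate 2 stood apart in leukocyte and erythroid markers, whose values are given below beside the results they move with, and the tests of the 9 genes are therefore given with and without that library. The study's methods describe male mice, but the counts of Xist, an RNA made from the silenced X of females, ranged from 88239 to 102417 at 2 months and from 11 to 30 at 18 months. A pattern of sex thus divides the libraries exactly as age does, and sex and age cannot be told apart here.

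The promoters of 7 of the 9 genes could be searched, in windows from 250 bases before to 50 bases after the RefSeq start (build GRCm38.p6). The ISRE core was searched as GAAA, then any 2 bases, then GAAA, on both strands. It was present in 4 of the 7 windows and in 3.44% of all 32851 promoter windows of this length. The stretches that hold it are shown because they are the sequence feature these genes share with the interferon response, with the matches in capitals and 10 bases on either side. On the strand shown, a match appears either as written or as its reverse complement.
Isg15, chr4:156200865-156200906, minus strand: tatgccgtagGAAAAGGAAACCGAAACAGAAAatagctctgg
Rsad2, chr12:26456553-26456582, minus strand: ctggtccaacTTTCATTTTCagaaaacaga
Ifit3, chr19:34583363-34583426, plus strand: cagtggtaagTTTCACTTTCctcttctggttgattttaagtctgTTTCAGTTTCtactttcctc
Ifit1, chr19:34640775-34640823, plus strand: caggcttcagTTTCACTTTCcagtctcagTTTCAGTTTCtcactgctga
Isg15 held 3 overlapping matches, which lay 57 to 78 bases before its start. Ifit1 and Ifit3 held 2 separate matches each, within 76 to 104 and 113 to 156 bases before the start. Rsad2 held 1 match, 111 to 120 bases before the start. The extended ISRE, the same letters followed by CT, was found in the windows of Ifit1 and Ifit3 and in 0.271% of all windows. The gamma-activated sequence TTCNNNGAA, an element of the interferon gamma response, was in 0 of the 7 windows and in 8.30% of all windows. The windows of Irf7, Oasl2 and Ifi44 held neither motif, which says only that these letters are not in these windows. Mx1 and Usp18 were not searched.

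The 9 genes were low in 2-month replicates 1 and 3, and 8 of them, all but Ifi44, were higher in every 18-month library than in those 2 libraries. In 2-month replicate 2 each of the 9 genes was at its highest level among the 2-month libraries. Of the 9 genes, 6 were still higher in every 18-month library than in every 2-month library. These were Isg15, Usp18, Irf7, Oasl2, Mx1 and Rsad2. Among all genes tested, 35.6% were higher in this sense, and 42.0% were when 2-month replicate 2 was left out. In a bulk tissue, fewer cells of a type and less RNA per cell cannot be told apart, and this holds for every level given here.

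**Figure D1:**
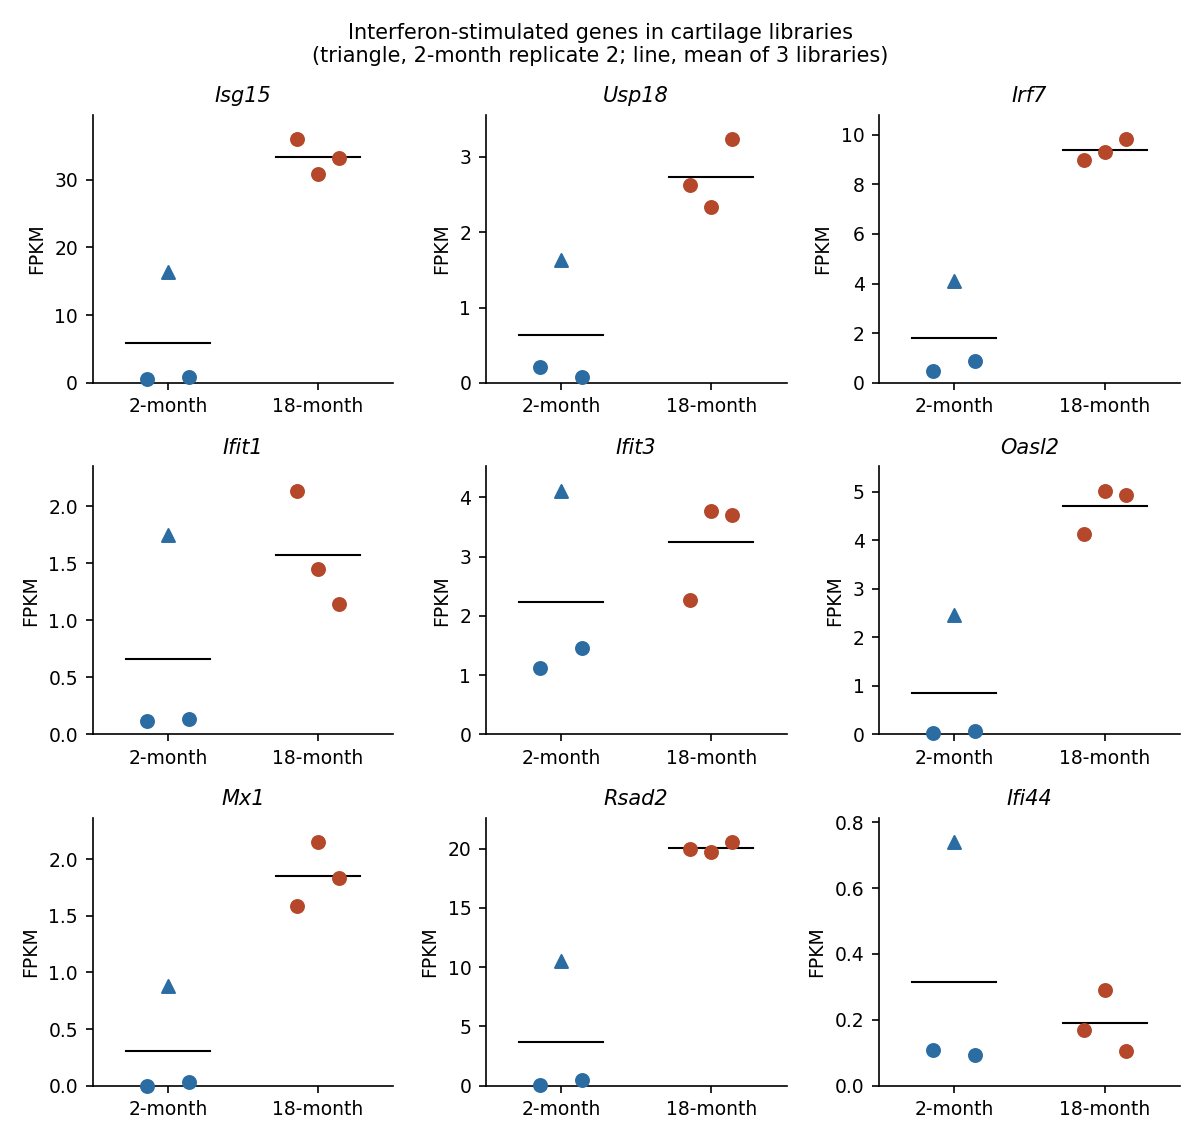
Level of each of the 9 genes in FPKM (vertical axes, from 0, each with its own scale) in the 3 libraries of 2-month cartilage and the 3 of 18-month cartilage. Each point is a library, the triangle is 2-month replicate 2, and the line is the mean of the 3 libraries. The triangle lies between the other 2-month libraries and the 18-month libraries for 6 genes, within the 18-month range for Ifit1 and above it for Ifit3 and Ifi44.

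Isg15 (ENSMUSG00000035692, chr4:156199455-156200796, minus strand) encodes a small ubiquitin-like protein that is secreted or attached to other proteins. It was at 0.503, 16.4 and 0.871 FPKM in 2-month replicates 1, 2 and 3 and at 36.0, 30.8 and 33.2 FPKM in the 18-month replicates. The ages did not overlap, and the single intermediate 2-month library lay at 49.2% of the 18-month mean. The log2 fold change was 2.49 ± 1.27 (SE, n = 3 libraries per age), which did not pass edgeR's quasi-likelihood test (Benjamini-Hochberg adjusted p = 0.147). Without 2-month replicate 2, which left 2 libraries at 2 months here and below, it was 5.46 ± 0.28, a fold of 44.0. This passed the same edgeR test (adjusted p = 8.7e-05).

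Usp18 (ENSMUSG00000030107, chr6:121245906-121270917, plus strand) encodes the protease that removes ISG15 from proteins and also blocks signalling at IFNAR2. Its level was 0.208, 1.63 and 0.0829 FPKM in the 2-month libraries and 2.62, 2.33 and 3.23 FPKM in the 18-month libraries. Again only replicate 2 of the 2-month libraries came near the 18-month range, without reaching it. Its log2 fold change of 2.05 ± 1.02 did not pass the edgeR test (adjusted p = 0.140), whereas 4.04 ± 0.49 without 2-month replicate 2 did (adjusted p = 0.0012). Usp18 overlaps Gm44148 on the opposite strand, and whether the counting used the strand is not given in the sources used here.

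Irf7 (ENSMUSG00000025498, chr7:141262706-141266481, minus strand) encodes the transcription factor that drives the interferon alpha genes and so amplifies the response. It was at 0.478, 4.12 and 0.865 FPKM at 2 months and at 8.98, 9.29 and 9.81 FPKM at 18 months. The 18-month libraries lay close together, and 2-month replicate 2 lay at 44.0% of their mean, the lowest share of the 9 genes. Irf7 rose by 2.33 ± 0.77 on the log2 scale, a fold of 5.03, and was the only one of the 9 genes called with all 6 libraries (edgeR adjusted p = 0.0469). Without 2-month replicate 2 the log2 fold change was 3.67 ± 0.29 (edgeR adjusted p = 0.00028). The call with all libraries was close to its threshold and was lost when any library other than 2-month replicate 2 was left out (edgeR adjusted p = 0.066 to 0.129). Irf7 overlaps Phrf1 on the opposite strand, with the same limit as for Usp18.

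Ifit1 (ENSMUSG00000034459, chr19:34640871-34650009, plus strand) encodes a protein that binds viral RNA lacking the host's cap methylation. It was at 0.116, 1.75 and 0.133 FPKM in the 2-month libraries and at 2.14, 1.45 and 1.14 FPKM in the 18-month libraries. The ages overlapped because 2-month replicate 2 lay inside the 18-month range. With all libraries the log2 fold change was 1.23 ± 1.07 (edgeR adjusted p = 0.368), and without that library it was 3.54 ± 0.40 (edgeR adjusted p = 0.00091).

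Ifit3 (ENSMUSG00000074896, chr19:34583531-34588731, plus strand) encodes a partner that stabilises IFIT1 on RNA. Its levels of 1.12, 4.11 and 1.46 FPKM at 2 months were the highest of the 9 genes in replicates 1 and 3. At 18 months it was at 2.27, 3.76 and 3.70 FPKM, so that 2-month replicate 2 was above every 18-month library. Ifit3 had the smallest difference of the 8 genes that were higher without 2-month replicate 2. Its log2 fold change was 0.50 ± 0.52 with all libraries (edgeR adjusted p = 0.450) and 1.23 ± 0.35 without that library (edgeR adjusted p = 0.0258). Ifit3 has a near-identical neighbour, Ifit3b, with 33, 197 and 62 counts at 2 months and 93, 136 and 141 counts at 18 months. Reads may have been split between both genes, so the level of Ifit3 is uncertain.

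Oasl2 (ENSMUSG00000029561, chr5:114896936-114912234, plus strand) encodes a relative of the enzymes that sense double-stranded RNA. It was almost at background in 2-month replicates 1 and 3, with 10 and 24 counts, and had 923 counts in replicate 2. In FPKM these libraries were at 0.0274, 0.0626 and 2.47, and the 18-month libraries were at 4.13, 5.02 and 4.94. The ages did not overlap. With all libraries the log2 fold change was 2.47 ± 1.53 (edgeR adjusted p = 0.220). Without 2-month replicate 2 it was 6.51 ± 0.39, a fold of 91.3 and the largest of the 9 genes (edgeR adjusted p = 0.00012).

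Mx1 (ENSMUSG00000000386, chr16:97447035-97462907, minus strand) encodes a GTPase that blocks influenza virus and is non-functional in many laboratory strains. It had 0, 197 and 8 counts at 2 months and 406, 513 and 444 counts at 18 months, or 0, 0.880 and 0.0308 FPKM against 1.58, 2.15 and 1.83 FPKM. No count was found in 2-month replicate 1, where a count of 0 allows a level of up to 0.0621 CPM (3 counts of the library's total), a limit of counting error only. Over all libraries Mx1 had a log2 fold change of 2.59 ± 1.61 (edgeR adjusted p = 0.220) and 6.48 ± 0.90 without 2-month replicate 2 (edgeR adjusted p = 0.0019).

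Rsad2 (ENSMUSG00000020641, chr12:26442746-26456452, minus strand) encodes viperin, which makes a chain-terminating nucleotide that stops viral RNA synthesis. It was at 0.0406, 10.5 and 0.510 FPKM at 2 months and at 19.99, 19.7 and 20.6 FPKM at 18 months. The 3 libraries of aged cartilage were nearly equal, while the 2-month libraries ranged from 10 to 2661 counts. Rsad2 had a log2 fold change of 2.45 ± 1.61 with all libraries (edgeR adjusted p = 0.244) and 6.06 ± 0.90 without 2-month replicate 2 (edgeR adjusted p = 0.0025). Replicates 1 and 3 of the 2-month libraries also differed from each other, with 10 and 125 counts.

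Ifi44 (ENSMUSG00000028037, chr3:151730922-151749960, minus strand), an interferon-induced gene linked to antiviral and antiproliferative activity, did not share the pattern. Its levels were 0.110, 0.740 and 0.0942 FPKM at 2 months and 0.169, 0.292 and 0.106 FPKM at 18 months. The highest library was 2-month replicate 2, at 391% of the 18-month mean, and the other 5 libraries lay between 0.0942 and 0.292 FPKM. The log2 fold change was −0.74 ± 0.88 with all libraries (edgeR adjusted p = 0.509). It turned to 0.78 ± 0.53 without 2-month replicate 2, and neither value passed the edgeR test (adjusted p = 0.248 for the second).

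**Figure D2:**
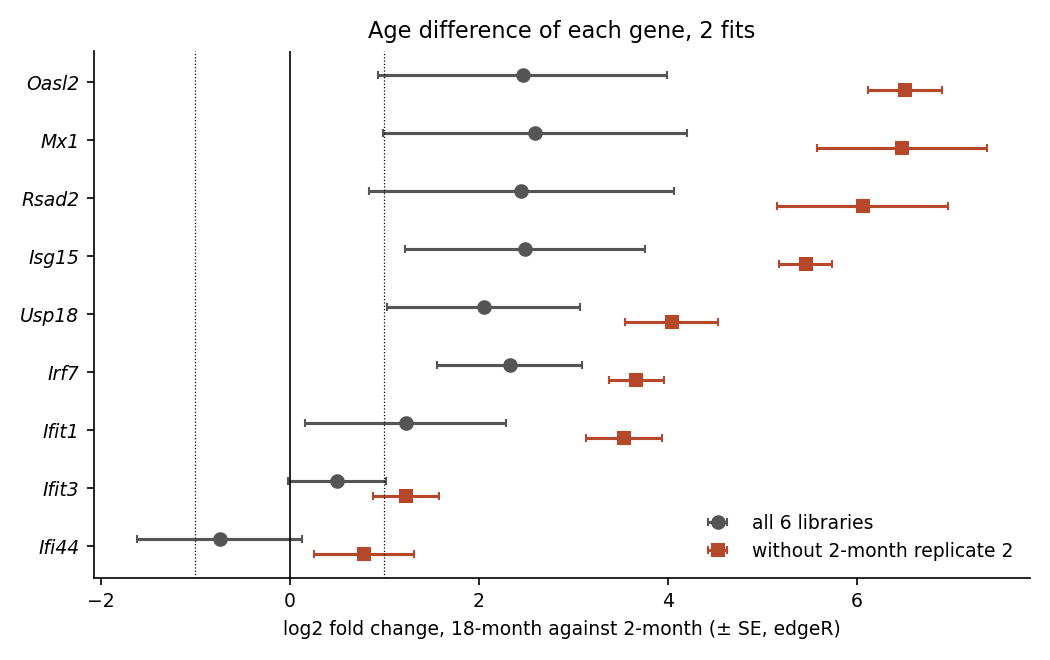
The log2 fold change of 18-month against 2-month cartilage for each gene (horizontal axis; points, edgeR estimates; bars, SE), with all 6 libraries (circles) and without 2-month replicate 2 (squares). Dotted lines mark log2 fold changes of 1 and −1. Every square lies to the right of its circle, from 0.78 for Ifi44 to 6.51 for Oasl2, and all 9 error bars are shorter without that library. It was the highest of the 2-month libraries for all 9 genes, so a shift to the right follows from leaving it out. The squares rest on 2 libraries of 2 months and 3 of 18 months.

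With all 6 libraries 1 of the 9 genes was called, at an adjusted p below 0.05 and a log2 fold change beyond 1 in size, and the same gene, Irf7, was the only one with an unadjusted p below 0.05. In the same edgeR fit 36.3% of all genes were called in either direction and 14.9% were called higher. The median log2 fold change of the 9 genes was 2.33, beside −0.02 over all genes tested. Without 2-month replicate 2 edgeR called 8 of the 9 genes higher, all but Ifi44, where 23.3% of all genes were called higher. The median of the 9 genes was then 4.04, beside 0.01 for all genes. That library was the highest of the 2-month libraries for all 9 genes, so larger differences follow from leaving it out. DESeq2 with all libraries called 3 of the 9 genes, Isg15, Usp18 and Irf7, and 19.6% of all genes, higher. On log2(FPKM + 0.1), limma called 6 of the 9 genes, those whose ages did not overlap, and 20.3% of all genes, higher. The number of the 9 genes that passed thus depended on the test and on 1 library, while 8 of the 9 log2 fold changes were above 0 in every fit of all libraries.

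At 18 months the 9 genes kept a clear order of level. Isg15 was highest, with a mean of 33.3 ± 2.58 FPKM (SD, n = 3), followed by Rsad2 at 20.1 ± 0.450, Irf7 at 9.36 ± 0.419 and Oasl2 at 4.70 ± 0.491 FPKM, with no overlap between neighbours. Ifit3 at 3.25 ± 0.845 and Usp18 at 2.73 ± 0.460 FPKM overlapped, as did Mx1 at 1.86 ± 0.284 and Ifit1 at 1.58 ± 0.511 FPKM. Ifi44 was lowest at 0.189 ± 0.0944 FPKM. At 2 months every pair of neighbours in the order overlapped. Isg15 was highest in 2-month replicate 2 and in each 18-month library, whereas Ifit3 was highest in 2-month replicates 1 and 3.

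Summed over the 9 genes, the share of all counts was 0.000705% (95% Wilson interval 0.000634% to 0.000784%) in 2-month replicate 1 and 0.00122% (0.00113% to 0.00132%) in replicate 3. It was 0.0128% (0.0125% to 0.0131%) in 2-month replicate 2. In the 18-month libraries the sum lay between 0.0224% (0.0220% to 0.0227%) and 0.0237% (0.0233% to 0.0241%). These intervals cover counting error only. The aged libraries differed little from one another, the 2-month libraries differed more, and the ages did not overlap in this sum.

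The level in 2-month replicate 2 was set against the 18-month mean, gene by gene. For the 9 genes the median was 52.5%, with 6 genes between 44.0% and 59.8%, and Ifit1, Ifit3 and Ifi44 at 111%, 127% and 391%. Over the 5007 genes that edgeR called higher without that library the median was 35.7%, with an interquartile range of 18.5% to 54.9%. Type I interferon-stimulated genes outside the 9 had a median of 56.3%, and interferon gamma-induced genes one of 51.4%, so this level was not particular to the 9. Markers of neutrophils had a median of 10.3%, those of T and NK lymphocytes 19.2%, those of erythroid cells 20.5% and those of monocytes and macrophages 22.4%. The markers of B lymphocytes had a median of 178% and those of plasmacytoid dendritic cells, the main producers of interferon alpha, a median of 88.2%. The latter list ranged from 15.9% to 414%, with Siglech at 58.3%. This list shares Bst2, at 58.8%, with that of type I interferon-stimulated genes. The highest values of the plasmacytoid dendritic cell list were 344% for Tcf4 and 414% for Runx2, which other cells of the joint also express. The plasma cell markers had a median of 102%. By these medians the 9 genes stood nearer to their 18-month level in this library than did the markers of neutrophils, erythroid cells, T and NK lymphocytes, and monocytes and macrophages, while the B lymphocyte markers were above their 18-month level.

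**Figure D3:**
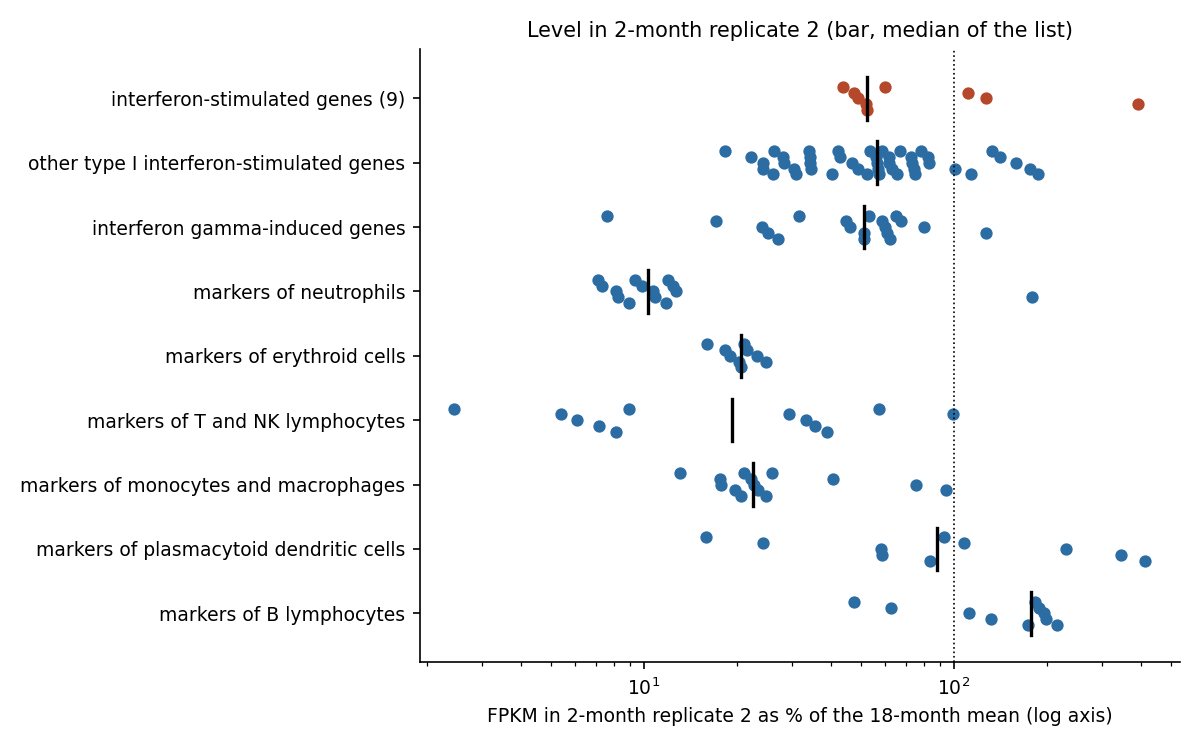
FPKM in 2-month replicate 2 as a percentage of the mean FPKM of the 18-month libraries (horizontal log axis), for the 9 genes, 2 further lists of interferon-induced genes and 6 lists of marker genes. Each point is a gene, the bar is the median of its list, and the dotted line marks 100%. The median of the 9 genes was 52.5%, between those of the neutrophil markers (10.3%) and the B lymphocyte markers (178%).

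Marker genes of other cells moved with the 9 genes, and their part in the results was not tested. The 14 neutrophil markers took 0.00175% and 0.0269% of counts in 2-month replicates 1 and 3, 0.563% (95% Wilson interval 0.561% to 0.565%) in replicate 2, and 4.29% to 4.598% at 18 months. None of them was called with all libraries (edgeR), 3 had an unadjusted p below 0.05, and 13 were called higher without 2-month replicate 2. Mmp9, the marker not called in either fit, supplied 97772 of the list's 291146 counts in 2-month replicate 2. In 2-month replicate 3 it supplied 10132 of 12965 counts. Its level in replicate 2 was 178% of the 18-month mean, so the neutrophil shares at 2 months rest in part on this gene. The 14 markers of monocytes and macrophages took 0.00168% and 0.00977% in replicates 1 and 3, 0.0633% (0.0626% to 0.0640%) in replicate 2 and 0.226% to 0.229% at 18 months, with 3 called higher in the fit of all libraries and 14 without 2-month replicate 2. The 9 erythroid markers took 0.0247% and 0.0697%, 0.660% (0.658% to 0.662%) and 2.70% to 3.57% in the same order.

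The B lymphocyte list differed from these in 2-month replicate 2. Its 10 markers took 0.0295% (0.0290% to 0.0300%) of its counts, above the 0.0213% to 0.0251% of the 18-month libraries, and 0.00105% and 0.00146% in the other 2-month libraries. Ifit3 and Ifi44 were also higher in 2-month replicate 2 than in every 18-month library. Other type I interferon-stimulated genes, among them Ifit3b, Mx2 and Parp12, were so as well. Whether any of these genes is linked to B lymphocytes in that library was not tested. The 12 T and NK lymphocyte markers took 0.00206% (0.00194% to 0.00219%) there and 0.0146% to 0.0168% at 18 months. Cd3e, a subunit of the T cell receptor complex, had 0 counts in 2-month replicates 1 and 3. The summed share of the 10 plasmacytoid dendritic cell markers was lower at 18 months (0.0229% to 0.0267%) than at 2 months (0.0482% to 0.0509%), but at 2 months most of it came from Tcf4 and Runx2, which other cells of the joint also express. Siglech, the defining surface receptor of these cells, had 4, 412 and 0 counts at 2 months and 1046, 657 and 655 counts at 18 months. The 8 plasma cell markers, Irf4 among them, took 0.0287% to 0.0320% at 2 months and 0.0608% to 0.0770% at 18 months. Most of the 18-month sum was Jchain, which links antibody chains and had 14, 355 and 23 counts at 2 months and 24687, 18765 and 18559 counts at 18 months, and without it the sums of the ages overlapped.

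Other genes of the interferon pathway were read in the same fit, in lists by role. Of the ligands, 5 were in the table and none passed the filter on low counts. The highest count of any ligand in any library was 10, for Ifng, the gene of interferon gamma, in 18-month replicate 1, and Ifng had 5 counts in each of the other 18-month libraries and 0 in the 2-month libraries. A low count of a ligand in this tissue does not bear on ligand made elsewhere. Of the 6 receptor genes 5 were called higher (edgeR) and 0 lower, with all libraries and also without 2-month replicate 2. Ifngr1, a chain of the interferon gamma receptor and the most abundant of them, was at 10.1, 22.5 and 11.1 FPKM at 2 months and at 62.9, 65.8 and 65.5 FPKM at 18 months (log2 fold change 2.10 ± 0.30, edgeR adjusted p = 0.0034). Ifnar2, the chain to which USP18 binds, rose by 1.58 ± 0.26 on the log2 scale (edgeR adjusted p = 0.0052). Ifnlr1, Il10rb and Ifngr2 rose by 2.20, 1.69 and 1.44 on the log2 scale. Ifnar1, the other chain of the type I receptor, was the receptor gene that was not called, at 8.92, 11.9 and 9.42 against 12.96, 10.6 and 10.03 FPKM.

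Among the 6 genes of JAK-STAT signalling, 2 were called higher with all libraries and 3 without 2-month replicate 2. Irf9, a DNA-binding subunit of the factor that binds the ISRE, rose by 1.53 ± 0.34 on the log2 scale (edgeR adjusted p = 0.0137). Jak1, a kinase of all interferon receptors and the most abundant of the list, had a log2 fold change of 0.73 ± 0.16 (edgeR adjusted p = 0.0137), which is under the limit of 1 for a call. Irf9 was at 2.93, 6.90 and 2.75 FPKM at 2 months and at 12.6, 13.05 and 12.1 FPKM at 18 months, with the intermediate level in 2-month replicate 2 that marked Isg15 and Irf7.

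Of 16 nucleic acid sensors and their adaptors, 5 were called higher and 1 lower with all libraries, and 8 higher and 1 lower without 2-month replicate 2. Tlr7, the endosomal receptor for single-stranded RNA, rose by 3.87 ± 0.77 on the log2 scale (edgeR adjusted p = 0.0095). Cgas, the sensor of cytosolic DNA, rose by 3.19 ± 0.73, and its adaptor Sting1 rose by 2.47 ± 0.60. Ifih1, the sensor of long double-stranded RNA, and Myd88, the adaptor of most Toll-like receptors, rose by 1.75 and 1.67. Tlr3, the endosomal receptor for double-stranded RNA, fell by 1.50 ± 0.20 on the log2 scale, from 1.78 to 2.20 FPKM at 2 months to 0.643 to 0.914 FPKM at 18 months (edgeR adjusted p = 0.0028). It was the only gene of the 107 tested in these lists that was called lower.

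Among the other interferon regulatory factors, 1 of 6 was called higher with all libraries and 5 without 2-month replicate 2. Irf1, an activator in both interferon responses, rose by 1.68 ± 0.40 on the log2 scale (edgeR adjusted p = 0.0167). Irf8 and Irf5, factors of myeloid cells and B lymphocytes, had log2 fold changes of 2.98 ± 1.52 and 3.27 ± 1.47, which did not pass with all libraries (edgeR adjusted p = 0.147 and 0.108). Without 2-month replicate 2 these were 6.65 ± 0.49 and 6.26 ± 0.76, and both passed (edgeR adjusted p = 0.00022 and 0.0012). Of 5 negative regulators, 1 was called with all libraries and 2 without 2-month replicate 2. Socs3, an inhibitor of JAK kinases, rose by 1.49 ± 0.22 on the log2 scale (edgeR adjusted p = 0.0038). Ptpn6, a phosphatase of blood cells and the most abundant of that list, was at 0.725, 18.4 and 1.02 FPKM at 2 months and at 95.6, 66.6 and 69.6 FPKM at 18 months (edgeR adjusted p = 0.0654, and 6.4e-05 without 2-month replicate 2).

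Of the 4 enzymes that attach ISG15 to proteins, 1 was called higher with all libraries and 3 without 2-month replicate 2. Ube2l6, the conjugating enzyme, was at 1.48, 22.9 and 1.85 FPKM at 2 months and at 89.2, 104 and 106 FPKM at 18 months, and rose by 3.50 ± 1.13 on the log2 scale (edgeR adjusted p = 0.0444). Uba7, the activating enzyme, had a log2 fold change of 2.95 ± 1.16 (edgeR adjusted p = 0.0788), and Herc6, the mouse ligase, one of 0.96 ± 0.33 (edgeR adjusted p = 0.0511). Without 2-month replicate 2 the log2 fold changes of Ube2l6, Uba7 and Herc6 were 5.79, 5.47 and 1.44, and all 3 passed (edgeR adjusted p = 5.0e-05, 3.0e-05 and 0.00051).

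A wider list of type I interferon-stimulated genes, without the 9, had 45 tested genes. In it 13 were called higher and 0 lower with all libraries, and 36 higher and 0 lower without 2-month replicate 2, with medians of 1.87 and 3.14 on the log2 scale. Ifitm1, which hinders viral entry, rose by 3.19 ± 0.44 (edgeR adjusted p = 0.0031). Ifi27l2a rose by 2.71 ± 0.71, Ifi204, a nuclear DNA sensor, by 2.26 ± 0.67, Dtx3l by 2.14 ± 0.34 and Samd9l by 1.93 ± 0.38. Bst2, which tethers budding virus to the cell, rose by 1.75 ± 0.58 (edgeR adjusted p = 0.0471). Pml, which builds nuclear bodies, and Oas1b rose by 1.23 and 1.20, and Ifitm2, the most abundant of the list, rose by 1.07 ± 0.26 (edgeR adjusted p = 0.0177). The ISRE core was in the windows of 17 of the 36 genes of this list that could be searched.

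Of the 19 tested genes listed as induced by interferon gamma, 8 were called higher and 0 lower, and 16 were called higher without 2-month replicate 2. Igtp, an immunity-related GTPase and the most abundant of them, was at 1.65, 4.797 and 1.13 FPKM at 2 months and at 26.2, 31.0 and 27.2 FPKM at 18 months. Its log2 fold change was 3.44 ± 0.55 (edgeR adjusted p = 0.0046). Igtp overlaps Irgm2, a gene of the same list, on the same strand. Reads may have been split between both genes, so the levels of Igtp and Irgm2 are uncertain. Cxcl9, a chemokine for T cells, was listed at 0, 0.211 and 0 FPKM at 2 months and was at 2.67, 2.89 and 2.82 FPKM at 18 months (edgeR adjusted p = 0.0378). Cd274, the gene of PD-L1, rose by 2.27 ± 0.33 on the log2 scale (edgeR adjusted p = 0.0037), and Gbp2, Irgm2 and Irgm1 rose by 1.80, 1.57 and 1.53. The ISRE core was in the windows of 10 of the 12 genes searched from this list. Among the marker lists it ranged from 0 of 13 neutrophil markers to 2 of 7 plasmacytoid dendritic cell markers. The latter list shares Bst2 with that of type I interferon-stimulated genes. The core was in 11 of 19 ligand genes that could be searched, 0 of 5 receptor genes and 0 of 4 ISG15 conjugation enzymes. It was in 3.44% of all windows.

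Over all these lists 36 of 107 tested genes were called higher and 1 lower with all libraries, and 78 higher and 1 lower without 2-month replicate 2. The median log2 fold changes were 1.68 and 2.51. Each of the 37 genes called with all libraries was also called, in the same direction, without that library. Set beside the 14.9% and 23.3% of all genes called higher in these fits, the counts describe the lists, with no test of them as sets.

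**Figure D4:**
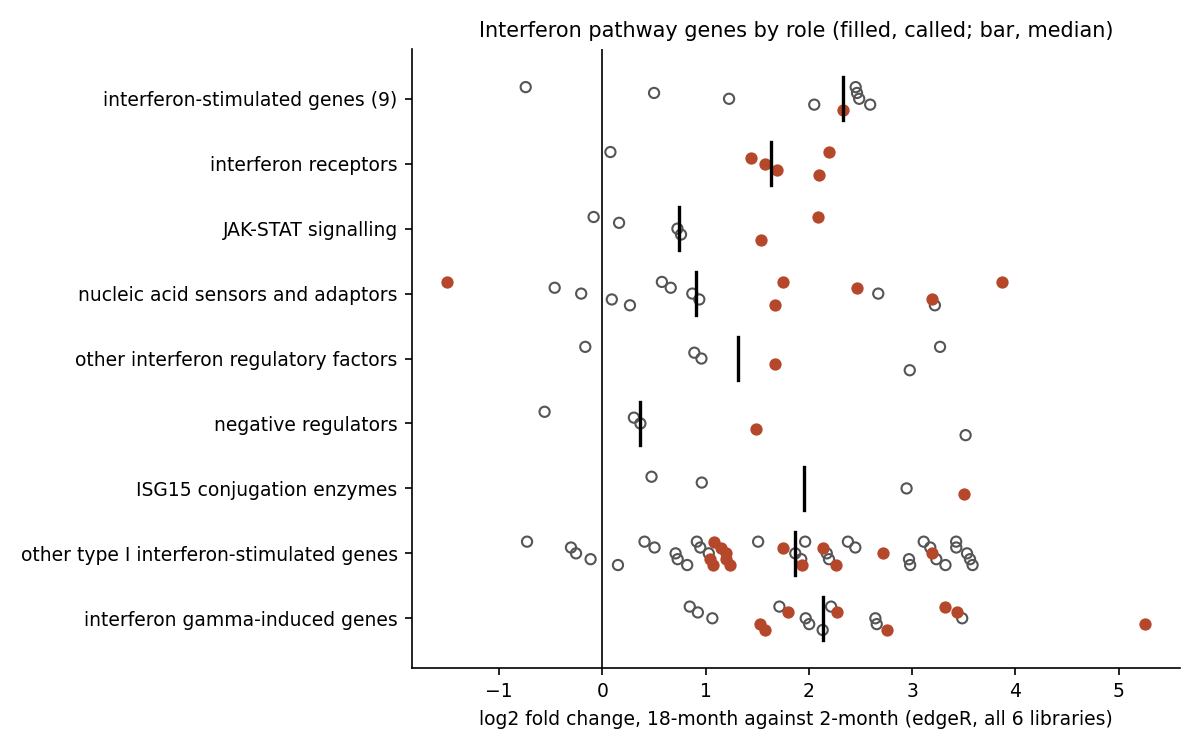
The log2 fold change of 18-month against 2-month cartilage (horizontal axis, edgeR with all 6 libraries) for the 9 genes and for 8 lists of interferon pathway genes. Each circle is a gene, filled where it was called, and the bar is the median of its list. Of the receptors 5 were called, at log2 fold changes of 1.44 to 2.20, and Tlr3 is the only filled circle left of 0.

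The 9 genes varied together over the libraries, apart from Ifi44. The Pearson correlation of log2(CPM + 1) of a gene with the mean of the other 8, over 6 libraries, was 0.88 for Ifit3, 0.95 to 0.99 for 7 genes and 0.42 for Ifi44. The 6 points share the division by age and the intermediate library, so these values are a description. The genes outside the 9 with the most similar pattern, among 14010 compared, were Slc11a2, Limch1, Heph, Notch3 and Tifa, each with a correlation of 0.998. In Limch1, Heph and Notch3 the FPKM of 2-month replicate 2 lay within the 18-month range, and in Slc11a2 and Tifa below it. Limch1 was at 0.378, 5.54 and 0.457 FPKM at 2 months and at 5.00, 5.49 and 5.80 FPKM at 18 months. For 6 of the 9 genes that library was below the 18-month range. After the mean of each age was subtracted, the most similar were Slc11a1, Iigp1, Icosl, Gm4739 and Gramd1b. Of these, Iigp1 is an immunity-related GTPase of the interferon gamma list, at 0.0541, 1.37 and 0.0912 FPKM at 2 months and at 1.85, 2.16 and 2.07 FPKM at 18 months.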

How the data were processed

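Polyadenylated RNA of articular cartilage had been sequenced from both ends as strand-specific libraries. The authors deposited read counts of each gene in each library, as whole numbers that were not normalized, together with FPKM values scaled by transcript length and library total. The submitters' processing notes name cutadapt 1.9, HISAT2 2.0.4, StringTie 1.3.4d, UMI-tools, DESeq2 and edgeR, without roles. The genome build is not given in the sources used here, and 87.2% of the genes had the coordinates of GENCODE M21 (GRCm38). Coordinates of genes are those of the table, and for Isg15 they differ from GENCODE M21.

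The test of the counts was that of edgeR 4.0.16 in R 4.3.3 (TMM, filterByExpr, quasi-likelihood, two-sided, Benjamini-Hochberg over all genes tested). The SE was computed from the log2 fold change and the square root of F, as their ratio. The edgeR fit was tested on simulated data with 200 changed genes. The simulation held fewer changed genes than were called here and no intermediate library, so it does not bear on the effect of either. DESeq2 1.42.0, limma 3.58.1 on log2(FPKM + 0.1), with pseudocounts of 1 and 0.01 and on TPM, other scalings and filters, a test against a fold change of 2, a replicate block and leaving out each library were alternatives. Counts of genes that do not overlap without 2-month replicate 2 were added after seeing the data. Precision follows from the 48171507 to 59085179 counts per library, and libraries of one age differed by 6.25 to 51.7 times the counting noise (median chi-square ratio), so none was merged.

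The 9 genes and all lists were chosen with earlier results of these data known. Named were the 9 genes, in each list up to 8 called genes of largest fold change whose mean FPKM was at least 1, the most abundant gene, the 5 genes of most similar pattern in each of the 2 measures, defining markers and Xist. Ifnar1, Irf8, Uba7, Herc6, Ifit3b, Mx2, Parp12, Mmp9, Tcf4 and Runx2 were named after their values were seen. Python 3.11.15 and matplotlib 3.10.9 were used for tables and figures. Columns left out numbered 0. Knockout cartilage was not analysed here, and 1 gene of the lists is not reported here.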

Additional observations from a re-analysis of the deposited data

How the results depend on the processing

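The number of the 9 genes called, 1 with all libraries, was 0 with total counts alone, without a filter, with genes limited to a mean FPKM of 1 or more (where Ifi44 was not fitted) and in the test against a fold change of 2. It was 3 with DESeq2, 6 with limma on log2(FPKM + 0.1) and on log2(FPKM + 1), and 4 on log2(FPKM + 0.01). Leaving out 1 library gave 0 to 8, with 8 only without 2-month replicate 2 and 0 without any of the others. Irf7 lost its call with total counts alone (adjusted p = 0.053), without a filter (0.068), with genes limited to a mean FPKM of 1 or more (0.0516) and against a fold change of 2 (0.141), and over all 12 alternatives that kept every library its adjusted p was 0.0023 to 0.141. Ifi44 turned from −0.74 to 0.78 without 2-month replicate 2, and leaving out 1 library moved it between −1.19 and 0.78. Over single-gene values and alternatives, 129 kept direction and side of the threshold, 22 passed it newly, 9 lost it and 1 reversed. Of the related interferon genes, 37 called, 11 were called against a fold change of 2, 63 with DESeq2 and 68, 60 and 64 with limma on log2(FPKM + 0.1), log2(FPKM + 1) and log2(FPKM + 0.01), and 18 to 79 with 1 library left out. Of all genes, 7401 called, 4033 were called against a fold change of 2 and 5640 to 9583 with 1 library left out. The share of higher genes among those called, 41.2%, was 57.8% with limma on log2(FPKM + 1), 52.2% without 2-month replicate 2, 33.9% with limma on TPM, 33.9% against a fold change of 2 and 35.6% without 18-month replicate 1. With limma the median of all genes was 0.075 on log2(FPKM + 0.1), over 21539 genes, and −0.37 on TPM, over 25923 genes. It was −0.02 with edgeR. Scaling and gene set both differed between these limma fits, so their effects cannot be told apart. The extended ISRE was in 2 promoter windows in place of 4. The cause of these changes was not tested. With the replicate number as a block, 1 of the 9 genes, 33 related genes and 6032 of all genes were called. After the mean of each age was subtracted, libraries with the same number were correlated by 0.034, 0.044 and −0.024. These values give no sign that the numbers pair the libraries, but 3 libraries per age are too few to exclude it. There were 3 libraries per age, 1 of them intermediate, and 7 of the 9 genes had 0 to 33 counts in their lowest library. Differences below the reported errors were therefore not detectable. Some above them were not called either, such as 2.49 ± 1.27 for Isg15 (edgeR adjusted p = 0.147).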
